A study of Sus scrofa with 7 samples.

Results

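The 10 genes ELN, FBN1, MFAP4, MFAP5, LTBP2, LOXL1, FBLN1, FBLN2, FBLN5 and EFEMP2 encode proteins of the elastic fibre and of its microfibril scaffold. They were followed in pig myocardium 14 weeks after infarction, among 20653 genes of the deposited table. Each gene was found by its symbol and is represented by 1 transcript row, that of highest mean level over all hearts. The set was chosen from earlier results of the same contrast, in which ELN, MFAP4 and LOXL1 were already known to be low, so the differences between groups are given for these genes as a description, without a test.

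RNA came from the anteromidventricular myocardium of male farm pigs whose infarct lay in the region of the circumflex branch (LCX) of the left coronary artery. All animals had been given AAV5, an adeno-associated virus used to bring a gene into cells. Its cargo was the reporter enzyme luciferase in the 3 hearts labelled hrLuc and human S100A1, a calcium sensor of cardiomyocytes, in the 4 labelled S100a1. The titles name each library as a pig of its own, and of the vectors' promoter, the animals' age and the distance to the scar nothing is given in the sources used here.

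Elastic fibres give arteries, valves and the interstitium of the heart their recoil. Tropoelastin is secreted, gathered on microfibrils of fibrillin, aligned by fibulins and crosslinked by lysyl oxidases into a fibre that is hardly replaced in adult life. Microfibrils also hold latent TGF-beta, the growth factor that drives fibroblasts to make matrix. In the ventricle fibroblasts and vascular smooth muscle cells are the main sources of these proteins.

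The libraries held 28679324 to 38409552 reads with 1 transcript row per gene, and the 10 genes together took 25798 to 44117 of them. Every member passed the filter on low values (a normalized count of 10 or more in 3 or more libraries), with 334 to 19487 reads in each library. All 11 ventricular cardiomyocyte markers were measured, at a summed level of 2042070 to 2326570 normalized counts in hrLuc and 2137060 to 2330480 in S100a1. The pig S100A1 gene was at 6568 to 9125 in hrLuc and 4429 to 6804 in S100a1, and since it is not known here whether reads of the human vector were counted on it, this gene does not check the labels. Values are read counts divided by a size factor per library. Fold changes are S100a1 over hrLuc on the log2(value + 0.5) scale, each with its standard error from a limma fit of 15661 genes. Without transcript lengths, levels are compared between libraries and not between genes.

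ELN, MFAP4, LOXL1 and EFEMP2 were lower in every S100a1 library than in any hrLuc library, and FBLN5 was higher in every one. The other 5 genes overlapped between the groups. Without overlap in the lower direction stood 4 of the 10 members, against 5.31% of all genes tested, and in the higher direction 1 of 10, against 3.96%. Negative fold changes were found in 9 of 10 members, against 56.5% of all genes tested, and the median was -0.23, against -0.02. Because the genes were chosen on this contrast, nothing is read from these shares. In bulk tissue, fewer cells of a type and less RNA per cell cannot be told apart.

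**Figure D1:**
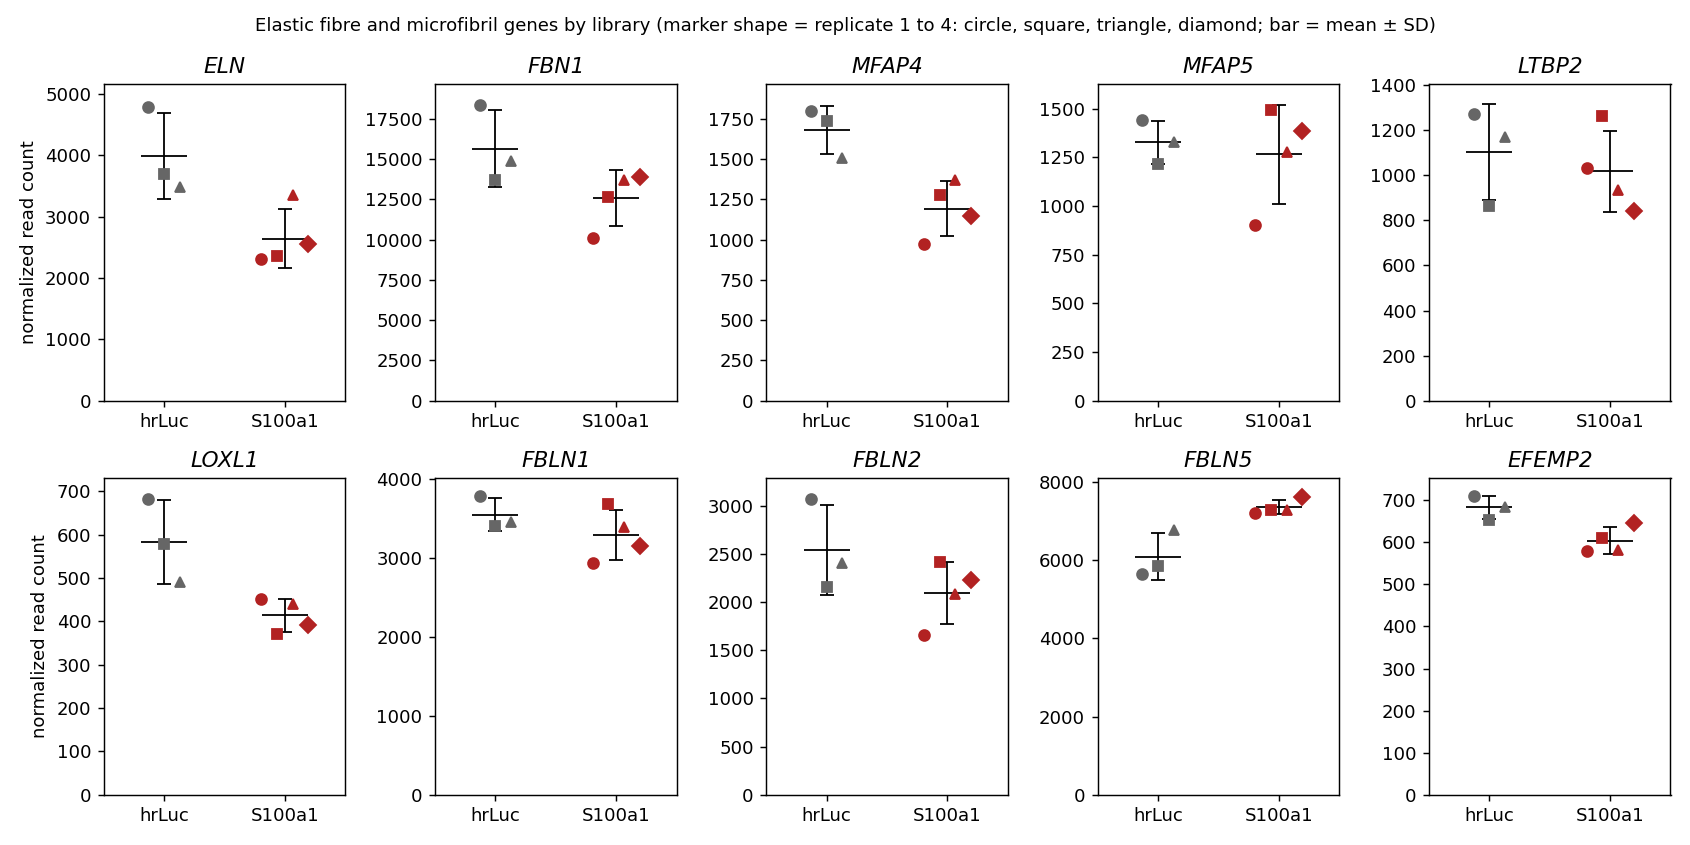
Normalized read count (y axis, from 0) of each gene in the 3 hrLuc and 4 S100a1 libraries (x axis), with the marker shape giving the replicate and the bar the mean ± SD. ELN, MFAP4, LOXL1 and EFEMP2 lie lower and FBLN5 higher in S100a1 without overlap, and hrLuc replicate 1 holds the highest value of 8 of the 10 genes.

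The core of the fibre showed the largest difference of the set, although MFAP4 (-0.50) and LOXL1 (-0.49) lay within 1 standard error of it. ELN encodes tropoelastin, the soluble precursor of elastin, and lies on chromosome 3 from 11214194 to 11245891 (Sscrofa11.1), with no other gene over it in the annotation. Its normalized counts were 4789, 3700.4 and 3489 in hrLuc replicates 1 to 3, and 2303, 2359.9, 3349.9 and 2549 in S100a1 replicates 1 to 4. The groups came close at S100a1 replicate 3, which lay just under hrLuc replicate 3, while the other 3 S100a1 hearts were well below. The mean was 3993 ± 698 (SD, n = 3) in the hrLuc hearts and 2641 ± 484 (SD, n = 4) in those of S100a1, or 66.1% of the hrLuc mean, a log2 fold change of -0.60 ± 0.15. Of all genes tested, 2.41% had a lower fold change. With each library left out in turn the value ran from -0.72, without S100a1 replicate 3, to -0.46, without hrLuc replicate 1.

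The 28 transcript rows of ELN gave little separate information. The 2 rows with the highest mean were identical, and 25 others held 99.97% to 100% of their value in each library, so the same reads stand in nearly all of them. The remaining row, NM_001315724, held 69.6% to 75.8% of the reads of the kept row, with a log2 fold change of -0.58. The fold change was thus nearly the same in the row with fewer reads.

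Among the microfibril genes, MFAP4 separated the groups and FBN1, MFAP5 and LTBP2 did not. MFAP4 encodes a glycoprotein that binds fibrillin and tropoelastin and is a ligand of integrins. Its counts were 1797, 1735 and 1509.8 in hrLuc, and 976, 1275, 1368 and 1146 in S100a1. Every S100a1 heart was below the lowest hrLuc heart, and S100a1 replicate 1 was the lowest. The mean went from 1681 ± 151 (SD, n = 3) to 1191 ± 169.9 (SD, n = 4), 70.9% of the hrLuc mean and a log2 fold change of -0.50 ± 0.12, which ran from -0.58 to -0.41 with each library left out. MFAP4 lies on chromosome 12 from 60141488 to 60144214 and overlaps MAPK7, a kinase gene whose log2 fold change was -0.24 ± 0.09. Reads in the shared stretch cannot be assigned to one of the 2 genes here.

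FBN1 encodes fibrillin-1, the backbone of the microfibril, and spans chromosome 1 from 123102011 to 123359649. Its counts were 18338, 13725 and 14864 in hrLuc, and 10120.4, 12653, 13677 and 13918 in S100a1. S100a1 replicate 4 lay above hrLuc replicate 2, so the groups overlapped, although 3 of 4 S100a1 hearts were below the lowest hrLuc heart. The log2 fold change was -0.31 ± 0.14, and it was -0.19 without hrLuc replicate 1. MFAP5 encodes MAGP-2, a small microfibril protein, on chromosome 5 from 62742520 to 62757522. Its counts were 1439, 1218 and 1327 in hrLuc, and 904, 1492, 1278 and 1383 in S100a1. S100a1 replicate 1 was the lowest of all 7 hearts and S100a1 replicate 2 the highest, and the log2 fold change of -0.09 ± 0.16 turned to 0.06 without S100a1 replicate 1.

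LTBP2 encodes a fibrillin-binding relative of the latent TGF-beta binding proteins that does not itself bind latent TGF-beta. It lies on chromosome 7 from 97744974 to 97852848 and overlaps ISCA2, an iron-sulfur assembly gene at a log2 fold change of -0.04. Its counts were 1272, 865 and 1171 in hrLuc, and 1029.7, 1263, 933 and 841 in S100a1. Both groups spread over nearly the same range, and the log2 fold change of -0.11 ± 0.17 ran from -0.28 without hrLuc replicate 2 to -0.0019 without hrLuc replicate 1. The 6 transcript rows of LTBP2 held identical values.

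LOXL1, the crosslinking member, was lower in S100a1. The enzyme oxidizes lysines of tropoelastin so that the monomers can join, and it is brought to the fibre by fibulin-5. The gene lies on chromosome 7 from 59481410 to 59505161 and overlaps the locus LOC110261566. Its counts were 681, 577 and 489.6 in hrLuc, and 452, 371, 439 and 392 in S100a1. The S100a1 hearts lay close together, under a widely spread hrLuc group. The mean went from 583 ± 95.9 (SD, n = 3) to 414 ± 38.3 (SD, n = 4), 71.0% of the hrLuc mean and a log2 fold change of -0.49 ± 0.13, with -0.60 to -0.37 when each library was left out.

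The 4 fibulins did not move as one. FBLN5 encodes fibulin-5, which binds tropoelastin, integrins and LOXL1 and tethers the growing fibre to cells. Its counts were 5642, 5867 and 6782 in hrLuc, and 7220.1, 7295, 7281 and 7626 in S100a1. It is the 1 member with a higher level in S100a1, where the 4 hearts differed by less than the 3 hrLuc hearts did. The mean went from 6097 ± 604 (SD, n = 3) to 7356 ± 183 (SD, n = 4), a log2 fold change of 0.27 ± 0.08, and the coefficient of variation was 9.91% in hrLuc and 2.49% in S100a1. The fold change stayed positive with each library left out, from 0.22 to 0.35, and all 3 transcript rows gave 0.27 to 0.28. FBLN5 lies on chromosome 7 from 113423629 to 113526412 and overlaps TRIP11, which encodes a Golgi protein. TRIP11 was at 3393 ± 92.9 (SD, n = 3) in the hrLuc hearts and 3468 ± 63.9 (SD, n = 4) in the others, for a log2 fold change of 0.03 ± 0.06.

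EFEMP2 encodes fibulin-4, which brings lysyl oxidase to tropoelastin and without which elastic fibres do not form. Its counts were 710, 654 and 685 in hrLuc, and 579, 610.3, 582 and 647 in S100a1. The groups did not overlap, but S100a1 replicate 4 came within a few counts of hrLuc replicate 2. The mean went from 683 ± 28.1 (SD, n = 3) to 604 ± 31.7 (SD, n = 4), 88.4% of the hrLuc mean and a log2 fold change of -0.18 ± 0.08, which ran from -0.21 to -0.15 with each library left out. The gene lies on chromosome 2 from 6455155 to 6463493 and overlaps MUS81, a nuclease gene at -0.05 ± 0.09.

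FBLN1 and FBLN2 encode larger fibulins found in elastic fibres, basement membranes and valves. FBLN1 (chromosome 5, 3839498 to 3927178) had counts of 3780.1, 3405 and 3451 in hrLuc, and 2933, 3683, 3385 and 3146 in S100a1. Its log2 fold change of -0.11 ± 0.09 was -0.06 without S100a1 replicate 1. FBLN1 has 2 transcript rows with different values, and the lower one held 66.9% to 71.2% of the reads of the kept one in the 7 libraries. FBLN2 (chromosome 13, 70757255 to 70830430) had counts of 3066, 2159 and 2409.6 in hrLuc, and 1653, 2411, 2083 and 2229 in S100a1. Every S100a1 heart except replicate 1 lay inside or near the hrLuc range, and the log2 fold change of -0.28 ± 0.15 was -0.14 without hrLuc replicate 1.

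No member passed an adjusted p of 0.05 in the limma fit, in which 2 genes or 0.0128% of those tested passed. At an unadjusted p under 0.05 stood 4 members in the lower direction (background 4.57%) and 1 in the higher (background 3.69%). When the values were turned back into whole reads, edgeR called 0 members (background 0.0128%) and limma-voom 0 (background 0.0%), while DESeq2 called MFAP4 (background 0.568%). In the authors' deposited table ELN and MFAP4 are under 0.05 in the lower direction, with log2 fold changes of -0.60 and -0.50, against 0.345% of the genes there. These calls come from the contrast that the members were chosen by, and they are not evidence for the choice.

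**Figure D2:**
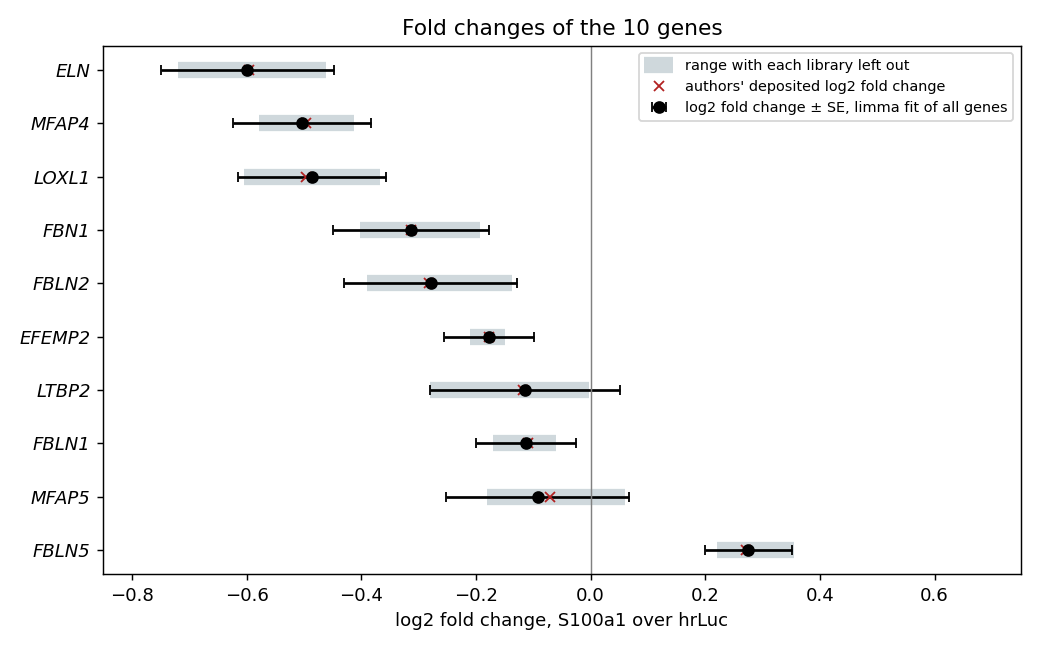
Log2 fold change of S100a1 over hrLuc (x axis) for each gene (y axis): black points with bars are the limma value ± SE, grey bands the range with each library left out, and red crosses the authors' deposited value. ELN, MFAP4 and LOXL1 stay at -0.37 or lower in these fits, FBLN5 stays above 0, and the band of MFAP5 crosses 0.

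The libraries at the ends of the range were often the same ones. Of the 10 genes, 8 had their highest value of all 7 hearts in hrLuc replicate 1, and 7 had their lowest in S100a1 replicate 1. With both of these hearts left out, ELN was still at -0.40, LOXL1 at -0.41, MFAP4 at -0.36, EFEMP2 at -0.13 and FBLN5 at 0.23. The remaining genes were then near 0: FBN1 was at -0.09, FBLN2 at -0.03, LTBP2 and FBLN1 at -0.01 each, and MFAP5 was on the other side at 0.12. The median of the 10 genes was -0.06 in that fit. The choice of these 2 libraries was made after their values had been seen. The library numbers were 33, 39 and 45 in hrLuc. They were 57 in S100a1 replicate 1 and 9, 15 and 21 in S100a1 replicates 2 to 4. Whether the order of these numbers bears on the levels was not tested.

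**Figure D3:**
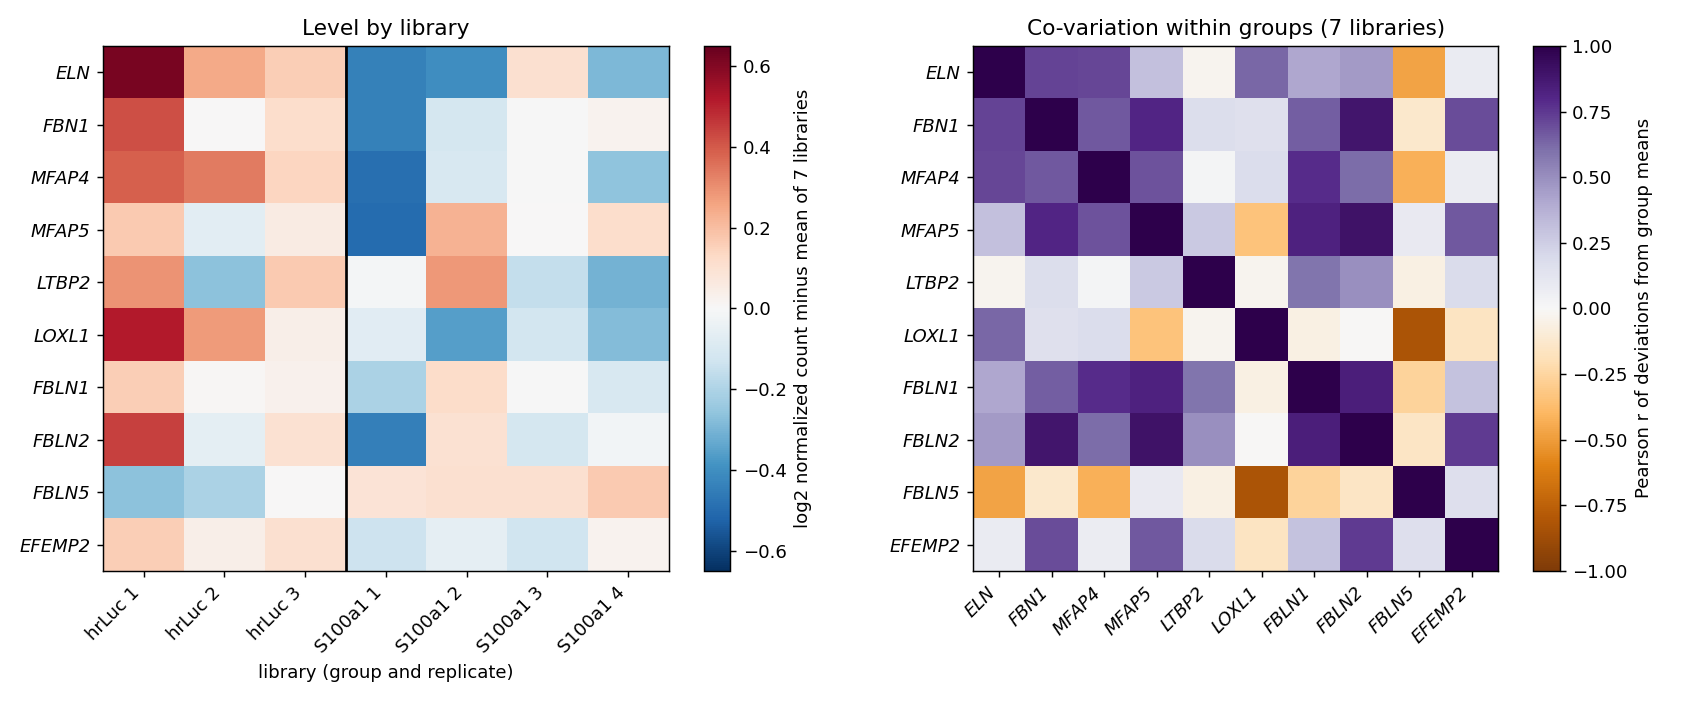
Left, the log2 normalized count of each gene (rows) in each library (columns) minus its mean over the 7 libraries, and right, the Pearson correlation of the genes' deviations from their group means. hrLuc replicate 1 is the highest column and S100a1 replicate 1 the lowest for most genes, while FBLN5 is lowest in hrLuc replicate 1 and highest in S100a1 replicate 4.

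Deviations from the group means showed which members varied together from heart to heart. These correlations over 7 libraries are a description without a p, and the libraries share tissue makeup and sequencing. Of 45 pairs, 32 were positive and the median r was 0.27. FBLN2 and MFAP5 were the closest pair (r = 0.90, Spearman's rho = 0.89), and r was 0.99 without hrLuc replicate 1 and S100a1 replicate 1. Few hearts were then left, and their group means were taken anew. An r over so few can easily be large in either direction. FBN1 and FBLN2 were nearly as close (r = 0.89, rho = 0.89), but that value rested on these 2 hearts and was -0.13 without them. FBLN5 and LOXL1, whose proteins bind each other, deviated in opposite directions (r = -0.83, rho = -0.86, and r = -0.71 without the 2 hearts). FBLN5 deviated from -0.11 to 0.16 in hrLuc and only from -0.03 to 0.05 in S100a1. Its r with LOXL1 thus came mainly from the hrLuc hearts. ELN deviated most closely with FBN1 (r = 0.72, rho = 0.79), but r was 0.32 without the 2 hearts. It also deviated with MFAP4 (r = 0.71, rho = 0.75, and 0.61 without the 2 hearts) and with LOXL1 (r = 0.63, rho = 0.36, and 0.82).

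Ratios taken within a library do not depend on its size factor. Reads of ELN per read of FBLN5 were 0.849, 0.631 and 0.514 in hrLuc, and 0.319, 0.324, 0.460 and 0.334 in S100a1. The mean was 0.665 ± 0.170 (SD, n = 3) against 0.359 ± 0.0675 (SD, n = 4). The ratio of LOXL1 to FBLN5 was 0.0971 ± 0.0243 (SD, n = 3) in the hrLuc hearts and 0.0563 ± 0.00603 (SD, n = 4) in the others, and that of MFAP4 to FBLN5 was 0.279 ± 0.0501 and 0.162 ± 0.0237. Because ELN, LOXL1 and MFAP4 were lower and FBLN5 higher in every S100a1 heart, these ratios had to separate the groups, and nothing further is read from it. The proportion of MFAP4 to ELN overlapped between the groups, at 0.426 ± 0.0472 and 0.456 ± 0.0590, as did that of ELN to LOXL1, at 6.85 ± 0.389 and 6.40 ± 1.04. Gene lengths differ, so the size of a ratio has no meaning of its own, and each is read across libraries.

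**Figure D4:**
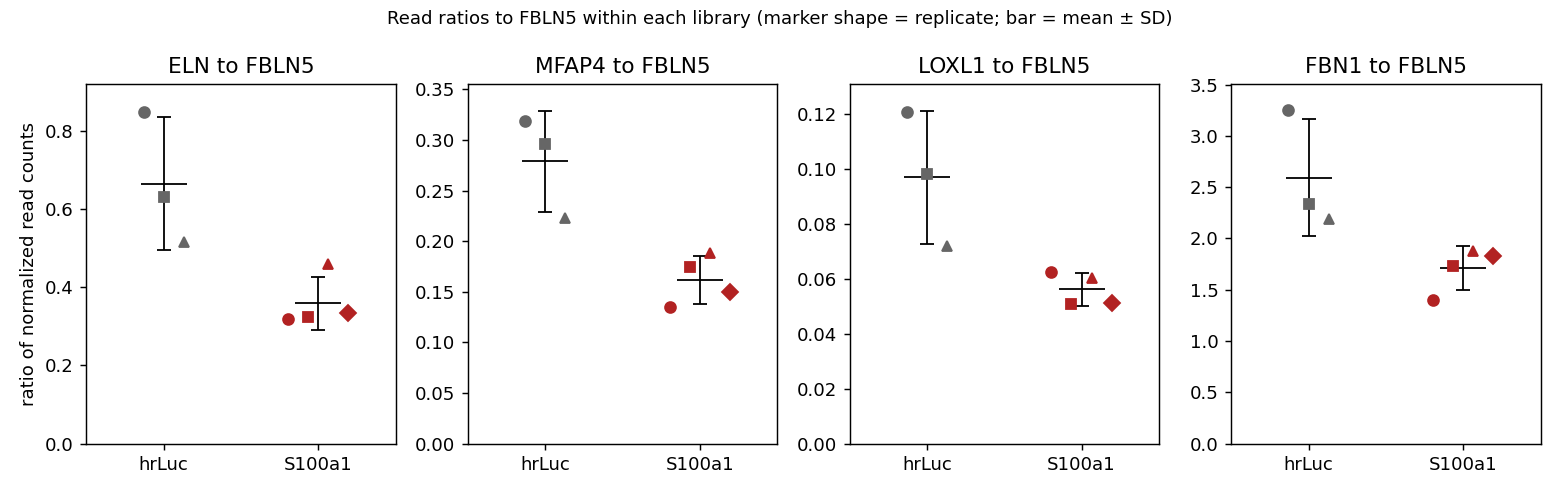
Ratio of normalized read counts of ELN, MFAP4, LOXL1 and FBN1 to FBLN5 within each library (y axes, from 0), by group (x axis), with the marker shape giving the replicate and the bar the mean ± SD. In each panel the 4 S100a1 points lie below the 3 hrLuc points. The group ranges of the levels already fix this, also for FBN1, whose own levels overlap.

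Markers of the cells that make elastic fibres varied beside the members. The 13 fibroblast markers other than MFAP5 had a mean log2 level that was lower by 0.23 in S100a1, and lowest in S100a1 replicate 1 as for most members. The groups did not overlap but came close. Relative to the mean over all hearts, the lowest hrLuc heart was at 0.05 and the highest S100a1 heart at 0.02. The difference rested largely on hrLuc replicate 1 (0.30) and S100a1 replicate 1 (-0.38), while all other hearts lay from -0.04 to 0.05. The summed level of all 14 was 148215 to 171347 normalized counts in hrLuc and 98550 to 152317 in S100a1, which overlapped. Relative to the mean of the 13 markers in the same library, ELN was at -0.37 and MFAP4 at -0.27, both still without overlap, and FBLN5 was at 0.51 without overlap. LOXL1 at -0.25 and EFEMP2 at 0.05 then overlapped, and FBN1 (-0.08), FBLN2 (-0.05), FBLN1 (0.12), LTBP2 (0.12) and MFAP5 (0.14) lay close to the markers. How far the amount of fibroblast RNA bears on the members was not tested.

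The 12 smooth muscle markers had a median log2 fold change of -0.23, with 9 negative, none past the threshold and summed levels of 76742 to 84310 in hrLuc and 72233 to 84930 in S100a1. Their mean log2 level was high in S100a1 replicate 1 (0.30 above the mean of the 7 hearts) and in hrLuc replicate 1 (0.34 above), so S100a1 replicate 1 was low in fibroblast markers and high in smooth muscle markers. Relative to the smooth muscle markers, every member overlapped between the groups, ELN included (-0.37). The part of smooth muscle was not tested.

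No other gene of the fibre and microfibril passed the threshold. Of 20 such genes measured, 15 were negative in log2 fold change. The median was -0.13, and 0 were past an adjusted p of 0.05 in limma, with 2 lower and 1 higher at an unadjusted p under 0.05. edgeR, DESeq2 and limma-voom called 0 of them. MFAP2, the closest relative of MFAP5, was at 201 ± 20.9 (SD, n = 3) and 126 ± 22.6 (SD, n = 4), or -0.68 ± 0.17 in log2 fold change (adjusted p = 0.499, limma), and EMILIN1, which sits between elastin and microfibrils, was at -0.31 ± 0.10 (adjusted p = 0.535, limma). Both were lower in every S100a1 heart. LTBP1, which does hold latent TGF-beta in the matrix, was higher in every one (0.27 ± 0.09, adjusted p = 0.535, limma). Its relatives LTBP3 (-0.21) and LTBP4 (-0.14) overlapped between the groups, as did FN1 (-0.29), ADAMTSL4 (-0.27), EFEMP1 (-0.13), FBLN7 (-0.11) and FBN2 (0.18). Several of these values rested on 1 heart. Without S100a1 replicate 1, LTBP3 was at -0.12, LTBP4 at -0.05, ADAMTSL4 at -0.13 and FN1 at -0.18. Without hrLuc replicate 3, FBLN7 was at -0.01 and FBN2 turned to -0.20, and without hrLuc replicate 1 EFEMP1 turned to 0.07 and FBN2 was at 0.44. FBLN7 was at -0.19 without S100a1 replicate 3, and EFEMP1 at -0.23 without hrLuc replicate 2.

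Lysyl oxidases and other helpers of assembly held 20 measured genes, of which 17 were negative, with a median of -0.18 and 0 past an adjusted p of 0.05 in limma, edgeR, DESeq2 or limma-voom. At an unadjusted p under 0.05 in limma stood 3 lower genes and 1 higher. LOX, the enzyme that fibulin-4 recruits, was at 358 ± 28.1 (SD, n = 3) in the hrLuc hearts against 330.2 ± 101 (SD, n = 4), for a log2 fold change of -0.17 ± 0.23 that turned to 0.03 without S100a1 replicate 1 and was -0.33 without S100a1 replicate 4. The collagen chaperones SERPINH1 (-0.44 ± 0.14, adjusted p = 0.535, limma) and FKBP10 (-0.38 ± 0.12, adjusted p = 0.535, limma) and the proton pump subunit gene ATP6V0A2 (-0.21) were lower in every S100a1 heart. SERPINH1 was at -0.33 without S100a1 replicate 1, and FKBP10 at -0.27 without hrLuc replicate 1. ADAMTS6, a protease of the microfibril, was higher in every one (0.41 ± 0.12, adjusted p = 0.530, limma). PPIB was at -0.19 and TGM2 at -0.26 (-0.13 without hrLuc replicate 3), both with overlap.

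**Figure D5:**
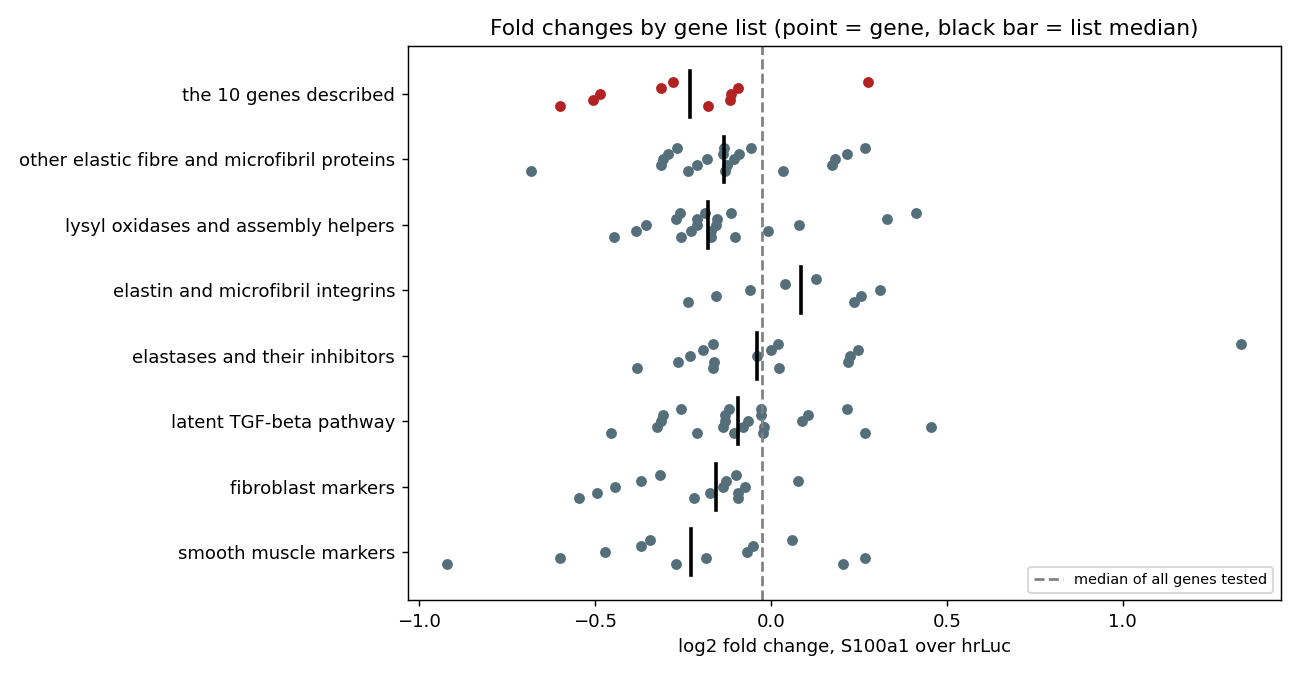
Log2 fold change of S100a1 over hrLuc (x axis) for each measured gene (points) of each list (y axis), with the list median as a black bar and the median of all genes tested (-0.02) as a dashed line. The 10 genes and the 2 lists of fibre partners and assembly helpers have medians of -0.23, -0.13 and -0.18, and the integrins 0.09.

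Integrins that bind elastin and microfibrils had a median of 0.09 over 8 genes, 5 of them positive. ITGB6 was at 0.26 and ITGB8 at 0.31, each at 0.17 without S100a1 replicate 1, and ITGB1 was at -0.16. Of 21 elastases and inhibitors, 15 could be tested, with a median of -0.04 and 9 negative. MMP12, the macrophage elastase, was at 0 to 2.47 normalized counts and MMP9 at 2.62 to 11.4, so their level was too low to compare. PRTN3, a neutrophil protease, passed the filter only through S100a1 libraries, with at most 7.48 normalized counts in hrLuc, so it had to be higher there and is not compared. The inhibitors TIMP1 and TIMP4 were at -0.38 and 0.25 (TIMP4 at 0.16 without hrLuc replicate 1). Of 22 genes of the latent TGF-beta pathway 17 were negative, with a median of -0.09. TGFB3 was at -0.45 and lower in every S100a1 heart, but at -0.26 without hrLuc replicate 2, whereas TGFBR3, a coreceptor, was at 0.22 and higher in every one. None of these 3 lists held a gene past an adjusted p of 0.05 in limma, edgeR, DESeq2 or limma-voom. At an unadjusted p under 0.05 in limma they held 0 lower and 1 higher, 1 lower and 1 higher, and 2 lower and 2 higher genes, the higher one among the elastases and inhibitors being PRTN3.

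The other marker lists also held 0 genes past the limma threshold. Fibroblast markers had 13 of 14 negative (median -0.15, 4 at an unadjusted p under 0.05), with THY1 at -0.54, PI16 at -0.49 and LUM at -0.31, each lower in every S100a1 heart. PI16 was at -0.32 without S100a1 replicate 1 and LUM at -0.16 without hrLuc replicate 1. Pericyte markers had a median of -0.08 with 5 of 8 negative (CSPG4 -0.24). The endothelial median was -0.09 with 9 of 10 negative. TEK, at 0.29, was the 1 positive gene there, and was at 0.14 without hrLuc replicate 1 and S100a1 replicate 1. For ventricular cardiomyocytes the median was 0.0013 with 5 of 11 negative (RYR2 0.42). Medians were -0.07 for 4 tested of 9 epicardial and mesothelial markers, -0.06 for atrial cardiomyocytes and -0.16 for macrophages. They were 0.07 for 4 tested of 6 adipocyte markers and -0.02 for 5 tested of 8 cartilage and bone markers. T cell markers had a median of -0.80 with 7 of 7 negative, CD5 at -1.11, CD4 at -0.80 and CD3E at -0.79. CD3E was at -0.47 without hrLuc replicate 1 and -1.19 without hrLuc replicate 2. Only 2 of the 7, CD5 and CD4, were lower in every S100a1 heart. The summed T cell level was low, at 401 to 838 normalized counts in hrLuc and 273 to 442 in S100a1, which overlapped. At an unadjusted p under 0.05, 2 pericyte and 3 T cell genes were lower, and 1 endothelial and 1 ventricular gene were higher. DESeq2 called CD5, and edgeR and limma-voom called no marker. In the authors' deposited table CD5 and RYR2 have an adjusted p under 0.05.

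Genes with the pattern most like that of the 10 members were found by the Pearson correlation of their deviations from the group means with the mean standardized deviation of the members, over 7 libraries and among 11748 genes with a mean of at least 100 normalized counts. They were C1R, a complement protease (0.996), ITPRIPL2 (0.994), GMFB (0.992), BST2, an antiviral membrane protein (0.990), and TRIM14 (0.980). For ELN alone they were LRRK1 (0.981), the repressor gene REST (0.979) and C4H1orf54 (0.976). The highest r out of 11748 genes over 7 libraries is high by selection alone, so nothing is read from its size. Between the groups these genes differed among themselves, from -0.54 for BST2 to 0.04 for LRRK1. Without hrLuc replicate 1 and S100a1 replicate 1, BST2 was at -0.23 and GMFB at -0.08. In that fit C1R turned to 0.18, TRIM14 to 0.05 and ITPRIPL2 to 0.01.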

How the data were processed

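Total RNA was made into libraries with depletion of ribosomal RNA, per the labels' protocols. The submitters' processing notes name the build Sscrofa11.1 and, without roles, DESeq2 1.33.1, FastQC 0.11.8 and R 4.1.2. The deposited per-library signal is read counts divided by 1 size factor per library, and 100% of values were whole multiples of 1 read within 0.01 read. The deposited log2 and ratio columns hold the authors' fold change and the deposited p-value column their adjusted p. All 63562 rows matched the RefSeq table for positions, and the row with the highest mean was kept per gene. On the aligner, counting mode and strand nothing is given in the sources used here.

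limma 3.58.1 (R 4.3.3) with a mean-variance trend was fitted to log2(value + 0.5), two-sided, over 15661 genes, with Benjamini-Hochberg adjustment at 0.05. The fit was tested on simulated data with larger changes than those of the members, so that test does not cover changes of their size. edgeR 4.0.16, DESeq2 1.42.0 and limma-voom used the recovered reads. Named genes are the members, their close relatives, the genes of smallest p per list, and those most alike over libraries. Members and lists were chosen with earlier results of these data known. Alternatives covered scaling, pseudocount, filter, test, transcript row, a replicate block and each library left out. No sequences or transcript lengths were used here.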

Additional observations from a re-analysis of the deposited data

Results flagged for a closer look

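No member had an S100a1 heart far from the other 3, and 5 of the 68 genes examined did, where chance alone flags about 1 group in 20. FBN2, fibrillin-2, was at 2260.0 normalized counts in S100a1 replicate 1 against 1365 to 1441 in the other 3. ITGB6 was at 9138 in S100a1 replicate 1 against 7135 to 7328. UPK3B was at 33.9 in S100a1 replicate 1 against 23.3 to 24.7. NPPA was at 1095 in S100a1 replicate 4 against 412 to 498. CD163 was at 2400.0 in S100a1 replicate 2 against 1202 to 1393.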

How the results depend on the processing

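The count of members with a negative fold change was 9 under the other scalings, pseudocounts, filters, tests and transcript rows and 8 to 9 with a library left out, and their median ran from -0.23 to -0.18 and from -0.34 to -0.14. With the replicate number as a block, where S100a1 replicate 4 has no partner and adds nothing, the count was 9 and the median -0.26, as without that heart. MFAP5 reversed without S100a1 replicate 1 (0.06) and without it and hrLuc replicate 1 together (0.12), a setting chosen after seeing the data in which FBN1 (-0.09) and FBLN2 (-0.03) also moved. The number of genes past the threshold, 2 in the reported fit, was 1 with median centring, 89 with DESeq2, 0 with limma-voom, 0 with the replicate number as a block, and 0 to 3 with each library left out; the cause was not tested. Over 12428 genes, r was -0.20 to 0.08 between hearts of the same number and -0.16 to 0.13 between hearts of different numbers. So few pairs cannot tell whether hearts of the same number belong together. The number is the only basis for the block here. Each of the 10 genes had at least 334 reads in every library.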
